A study of Mus musculus with 2 samples.

Results

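The transcripts of 3 galectin genes, Lgals1, Lgals3 and Lgals9, were followed by cell type and library in single cells from lungs of mice injected with tumour cells. The genes were taken by symbol from the deposited count tables, which list 10791 genes for the niche library and 10814 for the distal library, and all 3 are among the 10198 genes listed in both. The genes were chosen by symbol, but selected on the Lgals1, Lgals3 and Lgals9 counts of these libraries, whose ratios were already known, so their values are a description and not a test. The niche library held cells titled as niche cells and the distal library cells titled as distal lung cells. Both were sorted as CD45-negative, that is without the surface protein of leukocytes, from lungs taken 7 days after Labelling-4T1 was injected into the bloodstream. The 4T1 line comes from a mouse mammary carcinoma and colonises the lung, and its labelling version releases a fluorescent protein that nearby cells take up. Both libraries come from injected animals, so no lung without tumour cells is part of the comparison, and there was 1 library per group. The labels do not give the strain, the age, the number of animals, the gate for niche cells, or whether tumour cells were kept out of the sort.

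After filtering, 1423 niche cells held 5139368 UMIs, the molecular tags that count transcripts, and 1987 distal cells held 4781222 UMIs. The median niche cell had 2975 UMIs and the median distal cell 1975. Levels are given as CPM, the UMIs of a gene per 1000000 UMIs of the genes listed in both tables, and their 95% intervals cover counting error only. Because each group is 1 library, no difference below has a replicate check. Cells were clustered, and clusters were named from marker genes as like a cell type. This gave 778 niche and 399 distal mesenchymal-like cells, 496 and 1307 endothelial-like cells, 96 and 255 epithelial-like cells, and 53 and 26 immune-like cells. Of the barcodes, 7 occurred in both libraries.

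Galectins are soluble lectins that bind galactose-containing sugars, on the surface of cells and in the matrix as well as inside the cell. Galectin-1, the product of Lgals1, is a small dimer made by fibroblasts, activated endothelium and many tumours, and it induces death or restraint of activated T cells. Galectin-3, from Lgals3, carries a tail that lets it form lattices. Macrophages and epithelia make it, and inside the cell it gathers on damaged lysosomes. Galectin-9, from Lgals9, joins a pair of sugar-binding domains, is induced by interferon in endothelium, and binds the T cell receptor protein Tim-3.

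In the GENCODE annotation of GRCm38, Lgals1 lies on chr15:78926725-78930465 on the plus strand, Lgals3 on chr14:47367751-47386160 on the plus strand and Lgals9 on chr11:78962974-78984946 on the minus strand, all 3 as protein-coding genes. Processed copies of Lgals1 are annotated on chromosomes 15 and 17, and how reads shared with them were counted is not given in the sources used here. RefSeq promoter windows (GRCm38.p6) of 300 bases, from 250 bases before a transcription start to 50 after it, matched 2 of the 3 genes, Lgals3 and Lgals9. Each was searched on both strands for GAAA followed by any 2 bases and a further GAAA, a short form of the element (ISRE) bound by interferon-activated factors, for TTCNNNGAA, the form bound by STAT dimers, for TGANTCA, the AP-1 form, and for GGGCGG, the GC box. The Lgals9 sequence is shown because its transcript level correlated with that of interferon response genes across clusters, as described below. Its ISRE-like matches, which lie on the opposite strand, are in capitals. The first line holds 228 bases that end before the outermost annotated start (chr11:78984947-78985174, minus strand), and the second 30 bases that straddle the other match (chr11:78984890-78984919, minus strand). The Lgals3 line holds 30 bases around its RefSeq start (chr14:47373846-47373875, plus strand), with 2 GC boxes in capitals, as a contrast. That start lies inside the GENCODE span of Lgals3, so the Lgals3 window does not cover the outermost annotated start.
Lgals9, before the start: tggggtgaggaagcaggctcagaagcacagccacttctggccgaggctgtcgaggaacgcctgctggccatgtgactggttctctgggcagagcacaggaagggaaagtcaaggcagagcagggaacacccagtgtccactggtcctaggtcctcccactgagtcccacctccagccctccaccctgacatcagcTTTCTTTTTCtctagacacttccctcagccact
Lgals9, after the start: atagctgtggTTTCTGTTTCctagctcagc
Lgals3, around the start: tgctgccCCGCCCtgggaGGGCGGgcccgg
The first Lgals9 match runs from 55 to 46 bases before the RefSeq start, and the second from base 16 to base 25 after it. Of 32851 promoter windows of the same length, 3.44% held at least 1 ISRE-like match and 0.225% held 2 or more. Among 26 interferon response genes, 22 had a window and 14 of these held a match. Of the 5 genes whose levels were most like that of Lgals9, 4 had a window and 0 held one. The Lgals3 window held no ISRE-like match, and neither window held a match to TTCNNNGAA, present in 8.30% of windows, or to TGANTCA, present in 7.81%. A GC box occurred in 35.7% of windows, and 2 or more in 19.5%. A match describes letters and is not evidence of binding.

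Over all cells, Lgals1 was far higher in the niche library, Lgals3 was about 2-fold higher and Lgals9 was at a similar level. Lgals1 had 2742 CPM in the niche library (13984 UMIs, interval 2697 to 2788) and 281.6 CPM in the distal library (1340 UMIs). Its log2 ratio of niche over distal was 3.28 (3.20 to 3.37), at percentile 99.9 of all 10198 genes. Lgals3 had 98.05 CPM in the niche library (500 UMIs) and 47.9 CPM in the distal library (228 UMIs), a log2 ratio of 1.03 (0.80 to 1.27). Lgals9 had 220.8 CPM in the niche library (1126 UMIs) and 208.2 CPM in the distal library (991 UMIs), a log2 ratio of 0.08 (-0.04 to 0.21). A gene is counted as 2-fold higher or lower where the ratio reached 2-fold and its interval excluded equality. By that rule 2 of the 3 galectins were higher and 0 lower, beside 5.16% of all genes higher and 6.08% lower. The Lgals3 ratio lost its 2-fold size, at 0.70, without cells poor in Malat1, and at 0.76 with at least 1000 detected genes per cell.

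The cells that held these molecules differed between the genes and between the libraries. Mesenchymal-like cells held 64.7% of the niche Lgals1 UMIs and 91.6% of the distal ones, while they held 62.3% of all niche UMIs and 19.5% of all distal UMIs. Epithelial-like cells held 33.0% of niche Lgals1 UMIs and 3.13% of distal ones. Almost all of the niche share lay in 1 cluster of 59 niche cells with keratin transcripts, which held 32.8% of the library's Lgals1 and 30% of its Lgals3 in 5.17% of its UMIs. Lgals3 UMIs were divided in the niche library between epithelial-like (43.6%), mesenchymal-like (36.0%) and immune-like cells (18.6%), and in the distal library 63.2% were in epithelial-like cells. Lgals9 UMIs lay mostly in mesenchymal-like (56.2%) and endothelial-like cells (39.2%) in the niche library, and in endothelial-like cells (81.3%) in the distal library. In sums over all cells, more cells of a type and more transcripts per cell cannot be told apart. With niche levels of each class weighted by the class shares of the distal library, the log2 ratios were 3.60 for Lgals1 and 1.68 for Lgals3, an alternative chosen after the data were seen. This weighting puts the niche epithelial-like level (10981 CPM of Lgals1), carried mostly by the keratin-positive cluster, on the distal epithelial-like share of 25.2% of UMIs. It therefore does not remove the difference in cell composition between the libraries.

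**Figure D1:**
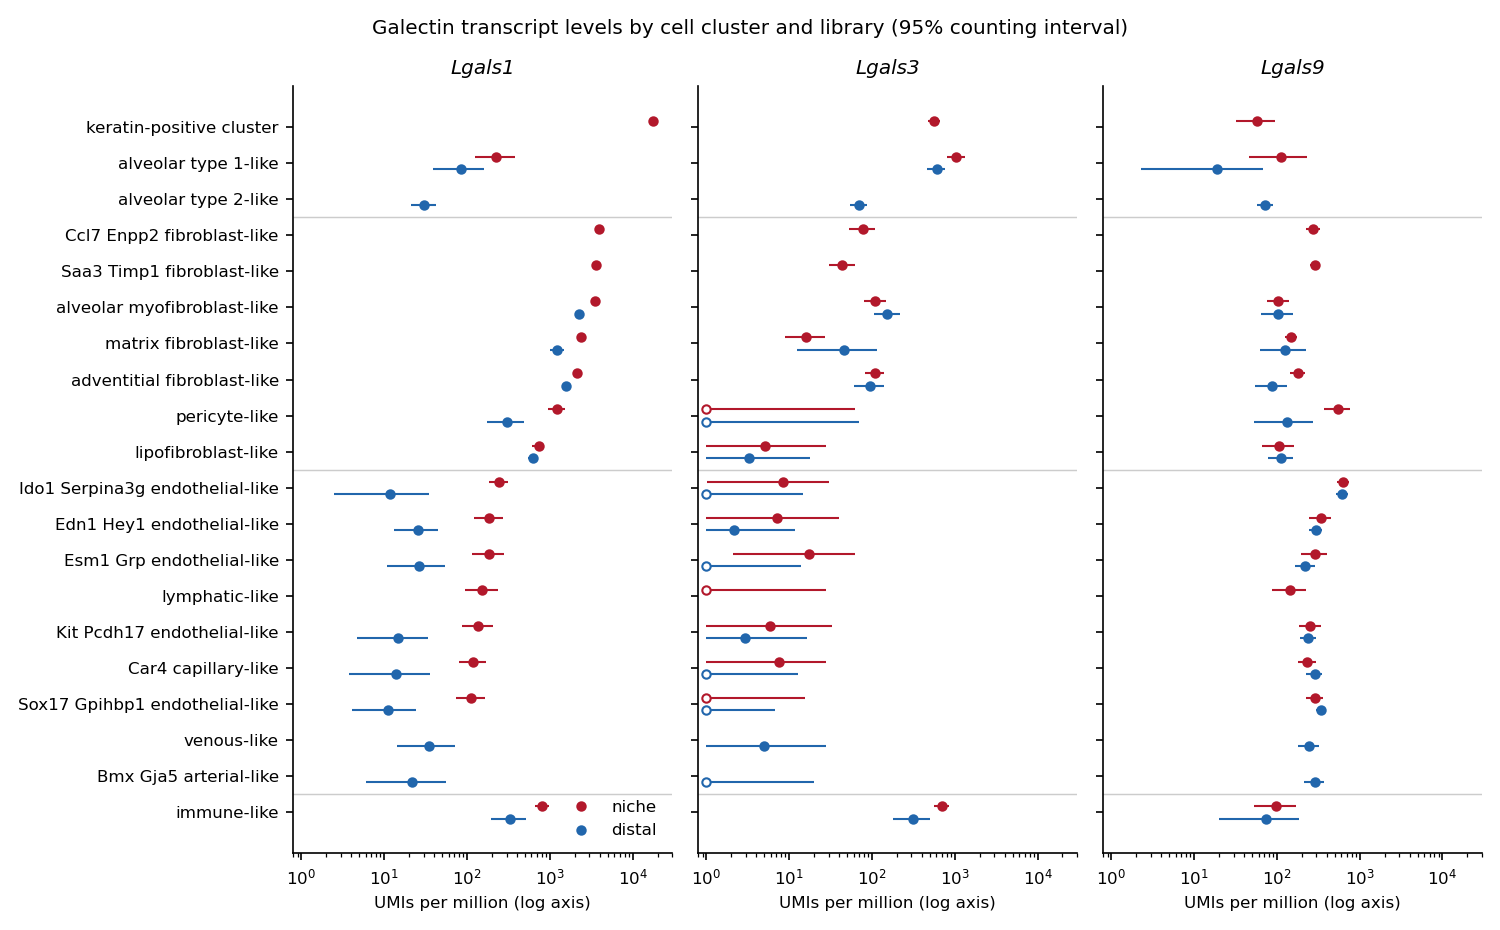
Levels of Lgals1, Lgals3 and Lgals9 in CPM (log axis) for each cluster with at least 20 cells in a library, niche above distal, with 95% counting intervals as bars and open circles at 1 for clusters with 0 UMIs. Lgals1 is highest in the keratin-positive cluster (17388 CPM) and lies higher in niche than in distal cells in each of the 6 endothelial-like clusters that can be compared; Lgals9 peaks in the Ido1 Serpina3g endothelial-like cluster of both libraries.

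Mesenchymal-like cells, which are fibroblasts, myofibroblasts and pericytes by their markers, carried more Lgals1 in the niche library, more Lgals9 summed over the class but not in every cluster, and Lgals3 at a level whose interval included equality. Lgals1 stood at 2845 CPM in niche cells (9047 UMIs) and 1320 CPM in distal cells (1227 UMIs), a log2 ratio of 1.11 (1.02 to 1.19). Lgals9 stood at 199.1 CPM in niche cells (633 UMIs) and 107.6 CPM in distal cells (100 UMIs), a log2 ratio of 0.88 (0.58 to 1.21), short of 2-fold. Its interval lay above equality in 2 of 5 comparable clusters, pericyte-like and adventitial, and the log2 ratio was -0.09 in lipofibroblast-like, 0.01 in alveolar myofibroblast-like and 0.19 in matrix fibroblast-like cells. Lgals3 stood at 56.6 CPM in niche cells (180 UMIs) and 68.9 CPM in distal cells (64 UMIs), a log2 ratio of -0.29 (-0.70 to 0.15). In this class 1 of the 3 galectins was 2-fold higher and 0 were lower, beside 3.41% and 7.31% of 9960 genes. The Lgals1 ratio was near the 2-fold line, at 0.99 without the Saa3 Timp1 fibroblast-like cluster and at 0.999 with every cell thinned to 1200 UMIs. Single niche cells of the class spread from 0 to 177.4 Lgals1 UMIs per 10000 with a median of 20.3, and distal cells from 0 to 116.8 with a median of 8.81, so the ranges overlap. At 1200 UMIs per cell, Lgals1 was found in 84.4% of niche and 63.5% of distal cells, and Lgals9 in 18.9% and 12.5%, with 46 shallower distal cells left out. Under a scaling that trims extreme genes (TMM), which moved the median of all genes in this class by 0.14, it was 1.25.

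Within the mesenchymal-like class, Lgals1 followed the kind of fibroblast. In the niche library it was highest in the Ccl7 Enpp2 fibroblast-like cluster (3969 CPM, 73 cells) and the Saa3 Timp1 fibroblast-like cluster (3632 CPM, 167 cells), which had 1 and 3 distal cells. Niche alveolar myofibroblast-like cells, the contractile cells with Hhip and Aspn, came next (3561 CPM), and their interval overlapped that of the Saa3 Timp1 cluster. Matrix fibroblast-like (2356 CPM), adventitial fibroblast-like (2136 CPM), pericyte-like (1216 CPM) and lipofibroblast-like cells (731.3 CPM) followed. In the distal library the order ran from alveolar myofibroblast-like (2255 CPM) over adventitial (1573 CPM), matrix (1227 CPM) and lipofibroblast-like (629.4 CPM) to pericyte-like cells (301.9 CPM). The log2 ratio was 1.98 (1.21 to 2.89) in pericyte-like, 0.94 (0.66 to 1.23) in matrix fibroblast-like, 0.66 (0.51 to 0.81) in alveolar myofibroblast-like and 0.44 (0.28 to 0.61) in adventitial fibroblast-like cells. In lipofibroblast-like cells, with 145 niche and 194 distal UMIs, it was 0.22 (-0.10 to 0.53). So 4 of 5 comparable clusters had an interval above equality, and 1 of them, pericyte-like, passed 2-fold.

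Lgals3 in mesenchymal-like cells was spread over several fibroblast-like clusters. Alveolar myofibroblast-like cells had 109.2 CPM in the niche (45 UMIs) and 154.1 CPM in the distal library (33 UMIs). Adventitial fibroblast-like cells had 109.0 CPM in the niche (57 UMIs) and 94.4 CPM in the distal library (24 UMIs), and 73.3 CPM in the niche without 1 cell that held 19 of the 57 UMIs. The niche Ccl7 Enpp2 cluster had 77.4 CPM (32 UMIs) and the Saa3 Timp1 cluster 44.1 CPM (31 UMIs). Lipofibroblast-like cells held 1 Lgals3 UMI in either library and pericyte-like cells 0 in each. Cells with Lgals3 nearly all had Lgals1 too: all 104 Lgals3-positive niche cells of the class and 37 of 38 distal ones. Lgals1 was present in 95.2% of all niche and 75.9% of all distal cells of the class.

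**Figure D2:**
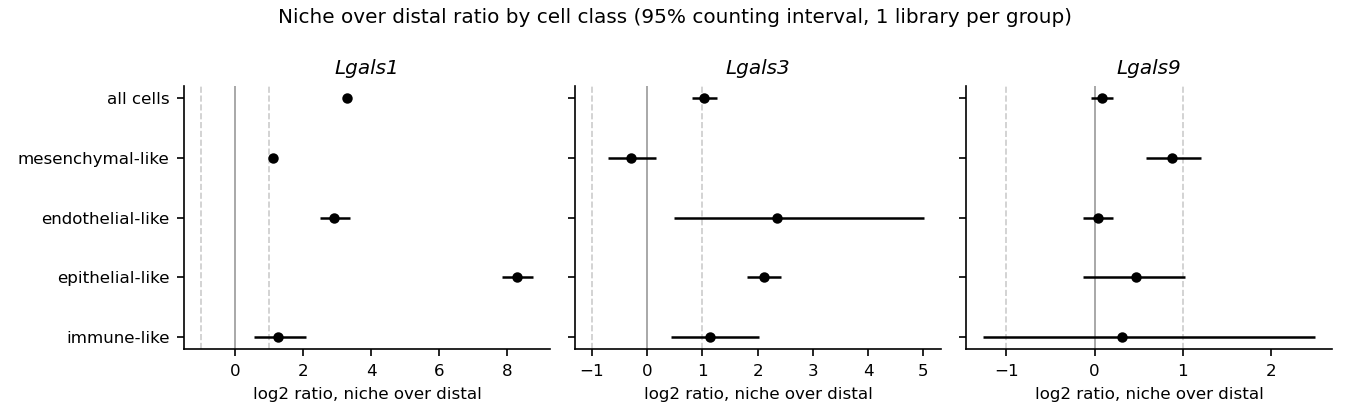
Log2 ratio of niche over distal level of each galectin over all cells and in 4 cell classes, with 95% counting intervals as bars; the dashed lines mark 2-fold and the x axes differ in range. Lgals1 lies above 2-fold in every class shown (1.11 in mesenchymal-like to 8.28 in epithelial-like cells), while Lgals9 passes it in none.

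In endothelial-like cells Lgals1 was low in both libraries but higher in the niche one, and the Lgals9 levels were close. Lgals1 stood at 156.5 CPM in niche cells (214 UMIs, interval 136.2 to 178.9) and 20.6 CPM in distal cells (53 UMIs, 15.4 to 26.9), a log2 ratio of 2.92 (2.49 to 3.39). A UMI of it was present in 30.04% of niche endothelial-like cells and 3.75% of distal ones, and in 16.3% and 1.58% at 1200 UMIs per cell, with 296 shallower distal cells left out. Lgals9 stood at 322.5 CPM in niche cells (441 UMIs) and 313.1 CPM in distal cells (806 UMIs), a log2 ratio of 0.04 (-0.13 to 0.21). Lgals3 was nearly absent, with 9 UMIs in 9 of 496 niche cells and 3 UMIs in 3 of 1307 distal cells, and its log2 ratio of 2.35 had an interval of 0.50 to 5.02. By the 2-fold rule 2 of the 3 galectins were higher, beside 2.1% of 9710 genes higher and 1.56% lower, but the Lgals3 call rests on these 12 molecules.

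The Lgals1 difference was present in each endothelial-like cluster that had at least 20 cells in both libraries. Its log2 ratio in these 6 clusters lay between 2.72 and 4.14, and each interval excluded equality. Niche clusters had 112.7 to 242.0 CPM and distal clusters 11.03 to 26.6 CPM, so the ranges did not overlap. The highest niche value was in the Ido1 Serpina3g endothelial-like cluster, with 57 UMIs in 70 niche cells and 3 UMIs in 115 distal cells. That cluster is led by interferon-induced genes and has all 10 endothelial markers. Lymphatic-like cells, with 20 UMIs in 36 niche cells (152.8 CPM) and 5 UMIs in 11 distal cells (155.3 CPM), did not show it, with a log2 ratio of -0.13 (-1.48 to 1.75).

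Transcripts of other cells were also higher in niche cells of this class. All 10 mesenchymal marker genes had UMIs in endothelial-like cells of both libraries, with a summed level of 732.8 CPM in the niche (488.9 to 955.3 over clusters) and 210.1 CPM in the distal library (80.9 to 816.8 over clusters). Niche endothelial-like cells had 5.50% of the Lgals1 level of niche mesenchymal-like cells, while the 10 markers had a median of 1.70% of theirs (1.002% for Dcn to 4.47% for Fn1). In the distal library Lgals1 stood at 1.56% of the mesenchymal-like level and the markers at a median of 0.535% (0.328% to 3.44%). Keratin transcripts summed to 14.6 CPM in niche and 13.6 CPM in distal endothelial-like cells. In the 367 niche and 1200 distal endothelial-like cells with no UMI of collagen genes Col1a1, Col1a2 and Col3a1, of Dcn or of 4 keratins, Lgals1 was 128.6 CPM in the niche and 20.5 CPM in the distal library. The part of free RNA from other cells in the Lgals1 level was not tested beyond these values.

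Lgals9 in endothelial-like cells differed more between clusters than between libraries. The Ido1 Serpina3g cluster had 632.6 CPM in the niche (149 UMIs) and 608.8 CPM in the distal library (154 UMIs). The other clusters ranged from 145.2 CPM in lymphatic-like to 337.0 CPM in Edn1 Hey1 cells in the niche library, and from 220.5 CPM in Esm1 Grp to 343.7 CPM in Sox17 Gpihbp1 cells in the distal library. In none of the 6 comparable clusters did the interval of the log2 ratio, between -0.29 and 0.39, exclude equality.

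Among epithelial-like cells of the niche library a set stood apart from lung epithelium. It consisted of the 37 cells with at least 3 UMIs of the keratin genes Krt7, Krt8, Krt18 and Krt19 and fewer than 10 UMIs per 10000 of Malat1, an abundant nuclear RNA. These 37 cells are 2.60% of the 1423 niche cells, and 1 distal epithelial-like cell met the same limits, with 2.77 Lgals1 UMIs per 10000. The galectins were not part of this rule, although the epithelial-like class came from a clustering that could use them. The 37 cells had keratin transcripts at 2788 CPM, against 3665 CPM in niche and 1151 CPM in distal lung epithelium. In niche lung epithelium, 340 of the 564 keratin UMIs came from 1 cell. Vim, an intermediate filament gene of mesenchyme, stood at 1735 CPM in the 37 cells, against 25.99 CPM in niche and 44.9 CPM in distal lung epithelium. The lung lineage factor gene Nkx2-1 had 1 UMI in the 37 cells. Their sum of 10 alveolar type 2 marker genes was 153.9 CPM, against 138981 CPM in niche lung epithelium and 257002 CPM in distal lung epithelium. Alveolar type 1 markers summed to 1225 CPM, against 7461 CPM in niche and 6766 CPM in distal lung epithelium. Of these 9 markers, 7 had a UMI in the 37 cells, but 0 were seen in 25% or more of the cells. Club cell markers summed to 485.5 CPM, against 5056 CPM and 4540 CPM. Mesenchymal markers summed to 597.9 CPM, against 714.9 CPM and 133.8 CPM. Of the 37 cells, 35 lay in the keratin-positive cluster and 2 in the alveolar type 1-like cluster, and these 2 held 6 of the 3020 Lgals1 UMIs. Of the 10 endothelial markers 2, and of the 10 immune markers 8, were at 0. The origin of these cells, injected or resident, was not tested. Lung epithelium below means the other epithelial-like cells with more Malat1 and outside the keratin-positive cluster. It has 35 niche and 250 distal cells, with Nkx2-1 at 292.4 CPM and 291.8 CPM. Lgals1 is itself among the leading genes of the keratin-positive cluster. Leaving that cluster out of lung epithelium therefore lowers its Lgals1 by the choice of cells, which enters the Lgals1 ratios below.

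Lgals1 was the galectin that set the keratin-positive cells apart. All 37 cells had it, with 3020 UMIs and 18053 CPM (17415 to 18708), and the lowest, median and highest cell had 7.76, 166.8 and 482.1 UMIs per 10000. Niche lung epithelium had 25 UMIs and 162.9 CPM (105.4 to 240.5), with a lowest and median cell of 0 and a highest of 23.1 per 10000. Distal lung epithelium had 41 UMIs and 34.5 CPM (24.7 to 46.8), with a lowest and median cell of 0 and a highest of 11.5 per 10000. Only the ends of these ranges overlap. The level in the 37 cells was 109-fold that of niche lung epithelium (log2 6.76, 6.23 to 7.42) and 517-fold that of distal lung epithelium (log2 9.01, 8.59 to 9.51). It was also 6.35-fold that of niche mesenchymal-like cells (log2 2.67, 2.61 to 2.73). Compared with all other epithelial-like cells of both libraries the log2 ratio was 4.0, and those other cells included the 24 niche cells described next. At 1200 UMIs per cell, 37 of 37 cells still had Lgals1.

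**Figure D3:**
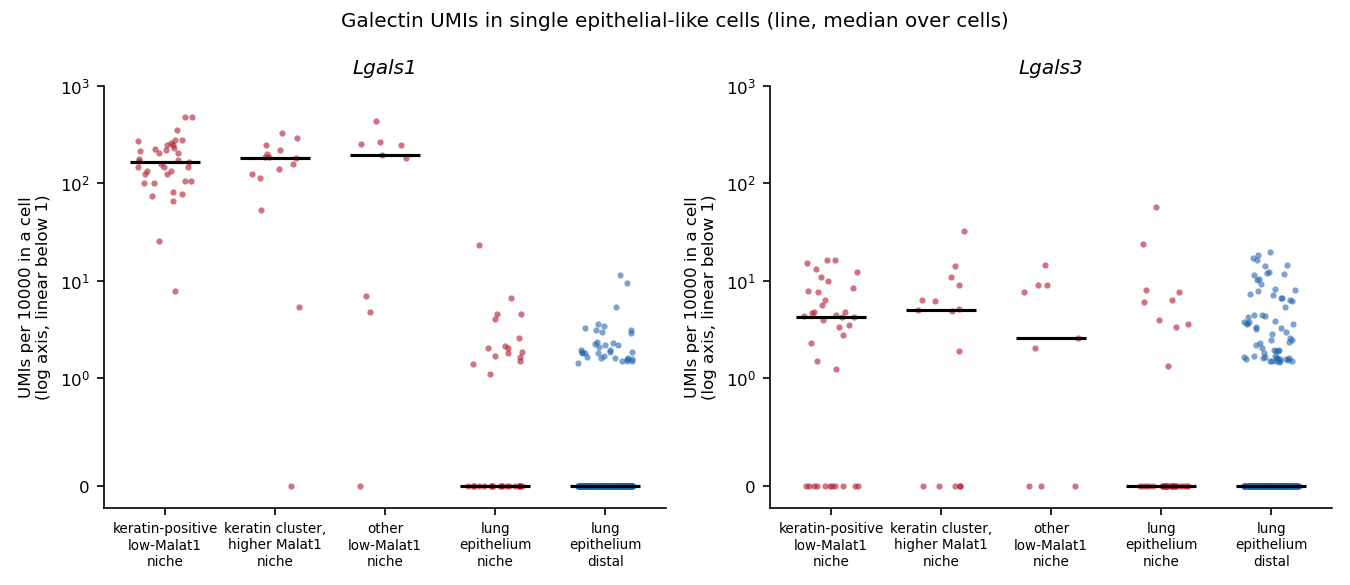
Lgals1 and Lgals3 UMIs per 10000 in single epithelial-like cells (log axis, linear below 1), with 37 keratin-positive low-Malat1, 15 higher-Malat1 keratin-cluster, 9 other low-Malat1 and 35 lung epithelium cells of the niche library and 250 lung epithelium cells of the distal library; the line is the median over cells. The first 3 sets have Lgals1 medians of 167, 182 and 197, while both lung epithelium sets have a median of 0.

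High Lgals1 was found on both sides of the Malat1 limit, but most cells above it in the keratin-positive cluster were still poor in Malat1. These 15 niche cells had 15163 CPM of Lgals1 (972 UMIs), and the 37 low-Malat1 cells were 1.19-fold higher (log2 0.25, 0.15 to 0.36). Their median Malat1 was 16.8 per 10000, against 346.0 in niche and 246.1 in distal lung epithelium. Those with the most Malat1, at 196.4, 198.3 and 407.1 per 10000, had 158.4, 0 and 52.7 Lgals1 UMIs per 10000. Whether Lgals1 depends on Malat1 level was not tested. The 9 other low-Malat1 epithelial-like cells, with fewer than 3 keratin UMIs, had 16855 CPM (600 UMIs), with 1 cell at 0. In niche mesenchymal-like cells, the 58 low-Malat1 cells had 4824 CPM and the 720 others 2761 CPM, a log2 ratio of 0.81 (0.69 to 0.92). Of these 58 cells, 46 lay in the Saa3 Timp1 cluster. Within the niche cells of that cluster, these 46 had 5352 CPM and the 121 others 3330 CPM. The log2 ratio there was 0.69 (0.55 to 0.82). Just inside the limit, the keratin-positive cell with the most Malat1 (9.87 per 10000) had 147.1 Lgals1 UMIs per 10000, and just outside it the nearest keratin-positive cell of the cluster (10.4 per 10000, 18 keratin UMIs) had 182.1. The threshold decided how many cells entered the set, 25 at 5 and 43 at 20 Malat1 UMIs per 10000, instead of 37. Within the 59 niche cells of the keratin-positive cluster, 4 had more than 100 UMIs of Scgb1a1, the secretoglobin gene of airway club cells. These 4 had Lgals1 at 449.9 CPM (205.7 to 854.1), and the other 55 at 18778 CPM (18238 to 19330).

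**Figure D4:**
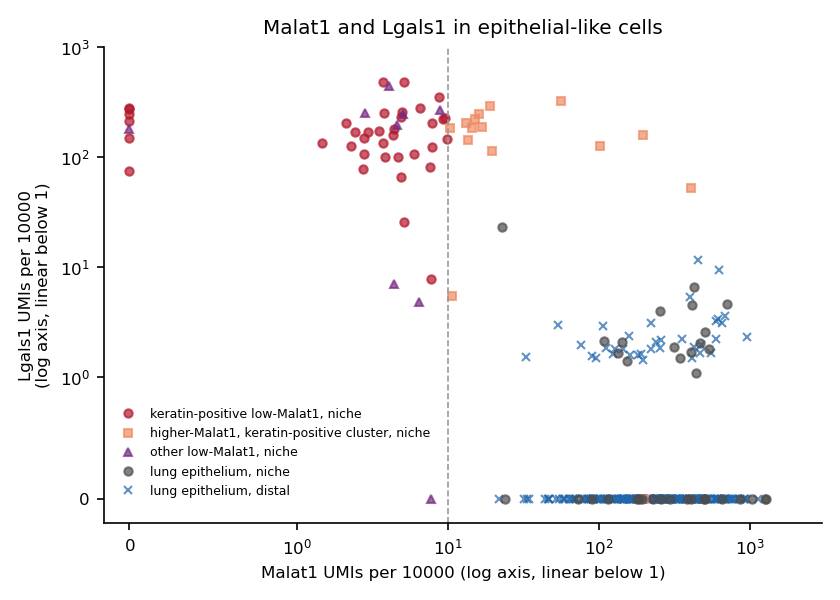
Malat1 (x axis) and Lgals1 (y axis) in UMIs per 10000 of single epithelial-like cells, both axes logarithmic and linear below 1, with the Malat1 limit of 10 as a dashed line. Most cells of the keratin-positive set and cluster lie high on both sides of the limit, with single cells down to 0, and lung epithelium of both libraries lies at or below 23.1 Lgals1 UMIs per 10000. Above the limit, the niche cells of the cluster have a median Malat1 of 16.8 per 10000.

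Lgals3 set the keratin-positive cells less far apart, and not from distal type 1-like or niche immune-like cells. The keratin-positive cells had 97 UMIs and 579.8 CPM (470.2 to 707.4), found in 26 of 37 cells, and all 26 also had Lgals1. Niche lung epithelium had 67 UMIs and 436.5 CPM, but 52 of these UMIs came from 1 cell with 340 keratin UMIs and a Malat1 level of 438.2 per 10000. Without that cell, niche lung epithelium had 104.0 CPM (15 UMIs) and distal lung epithelium 117.8 CPM (140 UMIs), a log2 ratio of -0.14 (-1.06 to 0.59), in place of 1.90 with it. The keratin-positive cells were 4.93-fold higher than distal lung epithelium (log2 2.30, 1.91 to 2.68). Against niche lung epithelium the log2 ratio of 0.41 had an interval of -0.05 to 0.88. Of the distal lung epithelium cells, 215 were type 2-like at 70.02 CPM, while the 35 type 1-like ones had 618.1 CPM (476.0 to 789.3). Niche immune-like cells had 704.1 CPM, and the log2 ratio of keratin-positive over niche immune-like cells was -0.28 (-0.71 to 0.15). In lung epithelium, 3 of 10 Lgals3-positive niche cells (30%) and 15 of 68 distal ones (22.1%) also had Lgals1. Among all lung epithelium cells, 45.7% of niche and 14.0% of distal ones had Lgals1. Whether the genes go together in single cells was not tested. Lgals9 had 17 UMIs and 101.6 CPM in the keratin-positive cells, 130.3 CPM in niche and 68.1 CPM in distal lung epithelium, and the interval of the ratio to each included equality. Between the lung epithelium sets, Lgals9 was higher in the niche library by a log2 ratio of 0.96 (0.15 to 1.66), on 20 niche and 81 distal UMIs.

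Within lung epithelium, the Lgals3 level was higher in the alveolar type 1-like cluster, named for the flat cells of gas exchange, than in type 2-like cells. The type 1-like cells of lung epithelium had 1077 CPM in the niche (63 UMIs in 18 cells) and 618.1 CPM in the distal library (64 UMIs in 35 cells). Without the single cell above, the niche level was 223.2 CPM on 11 UMIs. Alveolar type 2-like cells, the surfactant producers, had 4 UMIs in 17 niche cells (42.1 CPM) and 76 UMIs in 215 distal cells (70.02 CPM), which made up 54.3% of the distal lung epithelium's Lgals3. At a finer clustering the whole type 1-like cluster, with 2 cells of the keratin-positive set in it, split into a group led by Igfbp2 and Ager and a group led by Cyp2f2, Sfn and Dynlrb2. In the marker lists used, Cyp2f2 is a club cell gene and Dynlrb2 a ciliated cell gene. This group held 12 of the 20 niche cells and 8 of the 37 distal cells of the cluster, so the type 1-like name is less secure for the niche cells. In the Ager group Lgals3 had 551.6 CPM in 8 niche cells (10 UMIs) and 725.2 CPM in 29 distal cells (60 UMIs). In the Cyp2f2 group it had 1239 CPM in 12 niche cells (54 UMIs, 52 of them in that single cell) and 172.4 CPM in 8 distal cells (4 UMIs).

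Lgals1 in lung epithelium was low in both libraries, with a log2 ratio of niche over distal of 2.25 (1.46 to 2.99). It was found in 45.7% of niche and 14.0% of distal cells, and in 11.4% and 4.03% at 1200 UMIs per cell. Type 2-like cells had 178.9 CPM in the niche (17 UMIs) and 30.3 CPM in the distal library (33 UMIs), which is 6.29% and 2.30% of the mesenchymal-like level. The mesenchymal markers stood in them at a median of 1.19% (6 of 10 with a UMI) and 0.724% (9 of 10). The part of free RNA in these levels was not tested. For the whole epithelial-like class, the log2 ratio was 8.28 (7.86 to 8.77) for Lgals1, 2.11 (1.80 to 2.43) for Lgals3 and 0.47 (-0.13 to 1.03) for Lgals9. In it 2 of the 3 galectins were 2-fold higher and 0 lower, beside 12.7% and 10.1% of 8154 genes. Without the keratin-positive cluster the Lgals1 ratio was 2.50 and the Lgals9 ratio 1.197.

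Immune-like cells that remained in the sort carried Lgals1 and Lgals3 at higher levels in the niche library, on few cells. Lgals1 had 802.5 CPM in niche cells (106 UMIs, 32 of 53 cells) and 328.9 CPM in distal cells (18 UMIs, 7 of 26 cells), a log2 ratio of 1.25 (0.56 to 2.096). Lgals3 had 704.1 CPM in niche cells (93 UMIs, 18 cells) and 310.6 CPM in distal cells (17 UMIs, 4 cells), a log2 ratio of 1.15 (0.42 to 2.02). Lgals9 had 98.4 CPM in niche cells (13 UMIs) and 73.1 CPM in distal cells (4 UMIs), a log2 ratio of 0.31 (-1.27 to 2.50). Here 2 of the 3 galectins were 2-fold higher and 0 lower, beside 8.08% and 2.03% of 2264 genes. A single distal cell held 9 of the 18 Lgals1 UMIs and a single one 8 of the 17 Lgals3 UMIs. With at least 1000 detected genes per cell the Lgals3 ratio was -0.13, the opposite direction. TMM scaling moved the median of all genes in this class by 0.18.

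Lgals9 levels correlated with the summed level of interferon response genes across clusters, weakly by rank among endothelial-like ones. Over 33 combinations of cluster and library with at least 20 cells, the Lgals9 level and the summed level of 26 interferon response genes had a Pearson r of 0.80 and a Spearman rho of 0.78 on log values. The most abundant genes weigh most in this sum. B2m alone had 8950 CPM in niche endothelial-like cells, and B2m and Cxcl10 had 7261 and 4263 CPM in niche mesenchymal-like cells. Within 12 mesenchymal-like combinations r was 0.83 and rho 0.76. Within 15 endothelial-like ones r was 0.71 and rho 0.31. The points share 2 libraries and their depths, and cells of 1 library are not independent samples. Lgals9 was highest among mesenchymal-like cells in niche pericyte-like cells, with 540.6 CPM (32 UMIs in 20 cells), against 132.1 CPM in distal ones (7 UMIs in 35 cells), a log2 ratio of 1.96 (0.83 to 3.46). Their interferon genes summed to 29783 CPM in the niche and 9435 CPM in the distal library. The Saa3 Timp1 and Ccl7 Enpp2 fibroblast-like clusters of the niche had 287.2 and 273.3 CPM of Lgals9, and adventitial fibroblast-like cells 177.8 CPM in the niche and 86.5 CPM in the distal library. In alveolar myofibroblast-like cells Lgals9 was 104.4 CPM in the niche and 102.7 CPM in the distal library, while their interferon genes summed to 9245 CPM and 3828 CPM. Lipofibroblast-like cells had 105.9 and 113.5 CPM of Lgals9, with interferon sums of 12376 and 5732 CPM. Matrix fibroblast-like cells had 148.2 and 124.9 CPM, with sums of 10981 and 5519 CPM.

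**Figure D5:**
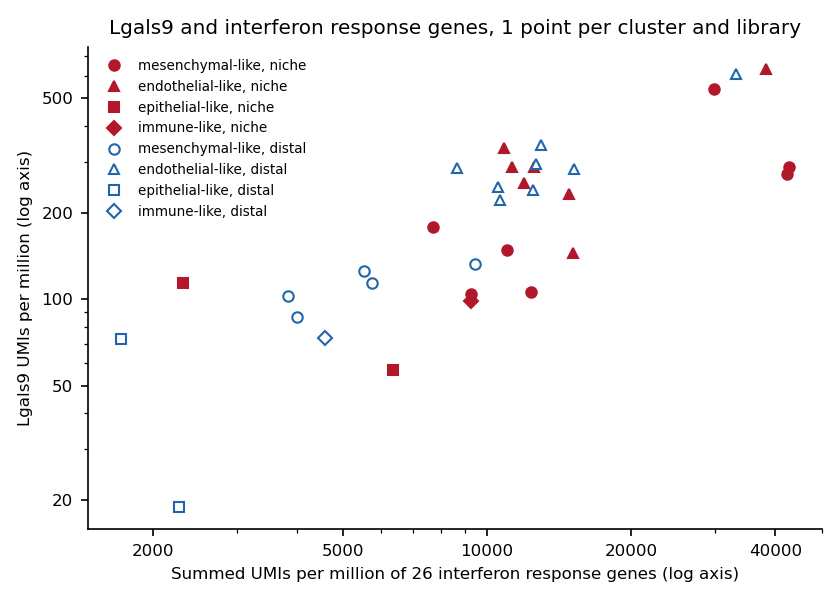
Lgals9 level against the summed level of 26 interferon response genes, both in CPM on log axes, 1 point for each of 33 cluster and library combinations, niche filled and distal open. The highest Lgals9 levels, 632.6 CPM in niche and 608.8 CPM in distal Ido1 Serpina3g endothelial-like cells, lie among the highest interferon levels. Epithelial-like points lie between 18.9 and 113.4 CPM of Lgals9 and between 1720 and 6351 CPM of interferon genes. These ranges overlap in part with those of distal mesenchymal-like points.

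By the same measure for single genes, Pearson r of log2(CPM + 10) over the 33 combinations among 5391 genes, the genes most like Lgals9 were Parp14 (0.90), H2-Q4 (0.87), H2-K1 (0.85), Il3ra (0.85) and Ifi47 (0.85). H2-K1 and H2-Q4 encode class I histocompatibility proteins, and Ifi47 an interferon-induced GTPase. Most like Lgals1 were the metallothionein gene Mt2 (0.86), the collagen gene Col3a1 (0.83), the chemokine gene Ccl2 (0.81), the ferritin gene Fth1 (0.80) and the matrix gene Mgp (0.80). Most like Lgals3 were Plp2 (0.77), Npm3 (0.76), Gm10073 (0.76), S100a6 (0.75) and Myeov2 (0.74). Between members, r was 0.51 for Lgals1 with Lgals3, -0.33 for Lgals1 with Lgals9 and -0.70 for Lgals3 with Lgals9. With a rank correlation instead, 3 of the 5 genes were shared for Lgals1, 2 for Lgals3 and 3 for Lgals9.

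Of 10 other galectin family genes looked for, 3 could be measured in both libraries. Lgals3bp, whose secreted product binds galectin-3, stood at 208.8 CPM in the niche and 117.9 CPM in the distal library (log2 ratio 0.82, 0.68 to 0.98). In mesenchymal-like cells it had 256.0 CPM in the niche and 107.6 CPM in the distal library, a log2 ratio of 1.24 (0.95 to 1.56), and it was highest in niche Saa3 Timp1 fibroblast-like cells (547.4 CPM). In endothelial-like cells its log2 ratio was 0.02 (-0.22 to 0.25). Lgals8, which marks damaged vesicles for autophagy, had 48.4 CPM in the niche and 39.1 CPM in the distal library (log2 ratio 0.31), and the galectin-like gene Lgalsl 31.6 and 23.3 CPM (0.43). Lgals4 was listed in the distal table alone, with 20 UMIs, and the Tim-3 gene Havcr2 did not reach the 10 UMIs and the listing in both tables that a measured gene needed.

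Genes of galectin partners differed in both directions over all cells, with 11 of 33 measured cell surface and matrix partners 2-fold higher and 7 lower (median log2 ratio 0.04, against -0.08 for all genes), beside 5.16% and 6.08% of all genes. The shares of all genes given above for each class are the background of the class counts below. In the epithelial-like class those counts compare unlike cells, since 59 of 96 niche cells and 2 of 255 distal cells belong to the keratin-positive cluster and 216 distal cells are type 2-like. Highest were the matrix proteoglycan gene Vcan (52.2 CPM in the niche, 4.83 CPM in the distal library, 3.404) and the checkpoint receptor gene Lag3 (42.2 and 5.46 CPM, 2.92). Lowest were the mucin gene Muc1 (17.1 and 89.7 CPM, -2.39) and the cadherin gene Cdh1 (4.90 and 37.6 CPM, -2.92). Within classes the counts were 5 of 30 higher and 4 lower in mesenchymal-like, 2 of 26 and 1 in endothelial-like, 2 of 27 and 7 in epithelial-like, and 1 of 11 and 0 in immune-like cells, where all genes had 3.41% and 7.31%, 2.1% and 1.56%, 12.7% and 10.1%, and 8.08% and 2.03%. The endothelial-like pair was fibronectin, Fn1 (49.0 CPM in the niche, 20.2 CPM in the distal library), and Lamb1 (14 and 6 UMIs). Fn1 was also higher in epithelial-like cells (83.2 and 4.17 CPM), with Eln (69.0 and 20.8 CPM). In endothelial-like cells Muc1 had 0 UMIs in niche and 12 UMIs in distal cells. In immune-like cells the lysosomal membrane gene Lamp1 had 57 and 10 UMIs.

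Of 19 measured enzymes that build or cap galectin ligands, 0 were 2-fold higher over all cells and 1 was lower, counts near the 5.16% and 6.08% of all genes. The lower one was the sialyltransferase gene St3gal6 (77.7 CPM in the niche, 174.2 CPM in the distal library, log2 ratio -1.16). B4galt4 had -0.82, and St6gal1 (0.69) and B4galt1 (0.65) were highest (median -0.13). None of the 19 passed 2-fold in mesenchymal-like or endothelial-like cells. In epithelial-like cells 1 of 16 was higher, St3gal4 (28 UMIs in niche cells, 12 UMIs in distal cells), and 4 were lower. In immune-like cells 1 of the list could be measured, and it passed in neither direction. Of 16 intracellular partners and genes that sense damaged membranes, 0 passed 2-fold over all cells in either direction (median -0.12). Chmp4b, a membrane repair gene, had 0.78, Anxa2 0.77, Trim16 -0.70 and the catenin gene Ctnnb1 -0.80. Chmp4b was 2-fold higher in mesenchymal-like (1.09) and immune-like cells (1.83, 38 and 4 UMIs), Anxa2 in epithelial-like cells (1.78), and the lysosome regulator gene Tfeb was lower in endothelial-like cells (-1.41, 6 UMIs in niche and 32 UMIs in distal cells).

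Interferon response genes were 2-fold higher for 15 of 26 over all cells and lower for 0 (median log2 ratio 1.15, against -0.08 for all genes), beside 5.16% and 6.08% of all genes. Cxcl9 (5.01) and Cxcl10 (4.49) were highest, and Stat2 (-0.14) and Irf9 (-0.38) lowest. The counts were 23 of 26 in mesenchymal-like (median 2.22), 5 of 26 in endothelial-like (0.42), 21 of 25 in epithelial-like (2.04) and 6 of 21 in immune-like cells (0.99), with 0 lower in each, while 3.41%, 2.1%, 12.7% and 8.08% of all genes were higher in these classes. Of 23 actin and motility genes, 7 were 2-fold higher and 0 lower over all cells (median 0.68). The calcium-binding protein gene S100a6 had 2.04 and the tubulin gene Tubb6 1.88, while Cnn1 had -0.37 and the tetraspanin gene Cd9 -0.66. In mesenchymal-like cells 0 were higher and 2 lower, beside 3.41% and 7.31% of all genes, so the lower count is near the share of all genes. The lower genes were Cnn1 (25.5 CPM in the niche, 102.2 CPM in the distal library) and Myl9 (230.5 and 496.1 CPM), both genes of contractile cells. Alveolar myofibroblast-like cells were 114 of 778 niche and 107 of 399 distal cells of the class. In endothelial-like cells 5 of 22, in epithelial-like 13 of 22 and in immune-like 5 of 16 were higher, with 0 lower, beside 2.1%, 12.7% and 8.08% of all genes higher.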

How the data were processed

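Each deposited file holds raw UMI counts per gene and cell of 1 library, with no normalization in the values. The authors made these counts on the mm10 genome with Cell Ranger 2.1.1 and also used R 3.4.1, per the submitters' processing notes, from 3' end libraries, per the labels' protocols. The steps by which genes and cells were selected before deposit are not given in the sources used here.

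Barcodes under 500 genes or over 10% mitochondrial UMIs were dropped, 50 from the niche and 9 from the distal table. Counts per 10000 were log-transformed and clustered (Python 3.11.15, scanpy 1.11.5, leidenalg 0.10.2, igraph 0.11.9) on 2000 variable genes, 20 components and 15 neighbours at Leiden resolution 1. A doublet caller marked 10 niche and 27 distal cells, which were kept. Clusters were named from marker lists where at least 3 markers were seen in 25% or more of the cells, and others by their leading genes. Mesenchymal-like, endothelial-like, epithelial-like and immune-like classes joined them.

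UMIs were summed per library and class. A log2 ratio of niche over distal had 0.5 UMI added to each sum and an exact 95% conditional binomial interval. CPM had exact Poisson intervals and shares of cells exact Clopper-Pearson intervals (scipy 1.17.1), and all cover counting error only. Marker sums in the epithelial-like sets are per 1000000 of all UMIs of the cells. A gene needed 10 UMIs over both libraries to be measured. No test was run, because there is 1 library per group. The ratio and its interval were tested on simulated data. Levels of different genes were not compared. To compare shares, cells were thinned to 1200 UMIs.

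The genes, the gene lists and the keratin-positive set were chosen with earlier results of these data known. Named genes were the members, the 5 genes most correlated with each, the members of each list with the 2 highest and 2 lowest ratios over all cells, and list members past 2-fold in a class where there were 3 or fewer. Alternatives covered scaling, depth, cell filters, clustering, weighting, left-out cells and clusters, and thresholds.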

Additional observations from a re-analysis of the deposited data

How the results depend on the processing

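The direction of the Lgals1 ratio held in all cells and in each of the 4 classes under every alternative run, with a range of 0.99 to 1.25 on the log2 scale in mesenchymal-like and 2.64 to 3.41 in endothelial-like cells. The range for Lgals9 was 0.71 to 1.02 in mesenchymal-like and -0.03 to 0.11 in endothelial-like cells. Lgals9 ratios, none past 2-fold as reported above, also changed sign, with ranges of -0.01 to 0.19 over all cells, -0.09 to 1.197 in epithelial-like and -0.45 to 1.98 in immune-like cells. Of the ratios past 2-fold, immune-like Lgals3 changed sign, at -0.13 with at least 1000 genes per cell, and was 4.80 without the 5 cells richest in it; immune-like Lgals1 was 2.71 and 3.05 under these settings. The cause was not tested. Over all cells, Lgals1 was 2.89 without low-Malat1 cells, 3.01 with cells weighted equally, 2.93 thinned, and 3.60 at distal class shares; Lgals3 was 0.76 with at least 1000 genes, 0.70 without low-Malat1 cells, 1.30 weighted equally and 1.68 at distal class shares. In mesenchymal-like cells, Lgals1 was 0.997 weighted equally, 0.999 thinned, 1.25 with TMM and 0.99 without the Saa3 Timp1 cluster, and Lgals3 was -0.86 thinned. Endothelial-like Lgals1 was 3.41 thinned. In epithelial-like cells, Lgals1 was 7.04 without low-Malat1 cells and 2.50 without the keratin-positive cluster, where Lgals9 was 1.197. Epithelial-like Lgals3 was 1.67 weighted equally, 1.62 thinned, 1.70 without the 5 richest cells and 1.75 without the richest cell.

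The log2 ratio of keratin-positive cells over other epithelial-like cells was, for Lgals1, 3.77 weighted equally, 3.72 thinned, 4.56 without the 5 richest cells, 3.30 at a Malat1 limit of 5, 4.53 at 20, 3.29 with at least 10 keratin UMIs in any class, and 9.20 against distal type 2-like cells. For Lgals3 it was 1.28 weighted equally, 0.84 thinned and 3.05 against distal type 2-like cells. Shares of cells with a UMI moved with depth. Without thinning, mesenchymal-like niche and distal shares were 95.2% and 75.9% for Lgals1, 13.4% and 9.52% for Lgals3, and 45.1% and 20.8% for Lgals9. Endothelial-like shares were 30.04% and 3.75% for Lgals1, and 47.4% and 40.5% for Lgals9. Epithelial-like shares were 78.1% and 14.1% for Lgals1, 54.2% and 27.1% for Lgals3, and 25% and 23.9% for Lgals9. At 800 UMIs, mesenchymal-like shares were 74.0% and 50.4% for Lgals1 and 14.4% and 8.52% for Lgals9, and 3.01% for distal Lgals3. Endothelial-like shares at 800 UMIs were 12.3% for niche Lgals1, and 22.4% and 21.4% for Lgals9.

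At resolution 0.5 the highest niche Lgals1 level was 14932 CPM, at 0.5 and 1.5 the highest niche Lgals3 level was 704 CPM, and at 1.5 the highest distal Lgals9 level was 798 CPM. With at least 50 UMIs per gene, lower partners in mesenchymal-like cells numbered 2, endothelial-like partners 1 higher and 0 lower, intracellular partners 0 lower and actin genes 3 higher, and epithelial-like partners 1 higher and glycan enzymes 0 higher and 2 lower. Of the 5 genes most like a galectin, resolution 0.5 shared 3 for Lgals1, 3 for Lgals3 and 2 for Lgals9, resolution 1.5 shared 2 for Lgals3 and 2 for Lgals9, leaving the galectins out of the clustering shared 3 for Lgals1, and Spearman's rho shared 3, 2 and 3 for Lgals1, Lgals3 and Lgals9. Settings chosen after the data were seen were the distal class shares, the endothelial-like cells without collagen, Dcn or keratin UMIs or without haemoglobin-rich cells, and the left-out richest cell. No paired analysis was possible because each group is 1 library. Leaving out low-Malat1 cells could not be run for the low-Malat1 set itself. Keeping the barcodes dropped for too few genes could not be run for classes and sets, since unclustered cells have no class. Few UMIs limit Lgals3 in endothelial-like cells, and few cells and UMIs limit Lgals9 in immune-like cells.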
